A study of Mus musculus with 8 samples.

Results

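Leukocyte integrins are adhesion receptors of white blood cells, and their transcripts were followed here in cultured mouse megakaryocytes, the bone marrow cells that release platelets. The group holds 7 genes out of the 27679 listed in the count table: Itgb2 (ENSMUSG00000000290), Itgal (ENSMUSG00000030830), Itgam (ENSMUSG00000030786), Itgax (ENSMUSG00000030789), Itga4 (ENSMUSG00000027009), Itga9 (ENSMUSG00000039115) and Itgb7 (ENSMUSG00000001281). Members were chosen by name, as the identifiers that map to these symbols, and not by a rule on measured values. Earlier results of these data were known when they were chosen. All 7 were found and all 7 passed the filter on low counts.

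The RNA came from 8 cultures of wild-type C57BL/6 bone marrow, described as independent biological replicates. Marrow cells were depleted of lineage-positive cells with magnetic beads and kept for 3 days in liquid medium (4 cultures) or in 2% methylcellulose (4 cultures), a soft hydrogel (Young modulus 30 to 60 Pa) that confines the cells. In both groups the larger, mature megakaryocytes were then taken on a gradient of 2 to 4% albumin, and polyA RNA was sequenced in stranded libraries. No allele or drug distinguished the groups. The gradient selects by size, so the material is enriched for megakaryocytes rather than made of them alone.

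An integrin is a pair of one alpha and one beta chain, and each chain needs its partner to reach the cell surface. Itgb2 encodes the beta 2 chain (CD18), which pairs with Itgal (CD11a) to form LFA-1, with Itgam (CD11b) to form Mac-1 and with Itgax (CD11c) to form the fourth complement receptor. Itga4 pairs with beta 1 to form VLA-4 or with Itgb7 to form the gut-homing receptor, and Itga9 pairs with beta 1. LFA-1 and Mac-1 mediate firm adhesion of leukocytes to the vessel wall, and VLA-4 holds blood progenitors in the marrow. The integrin that defines megakaryocytes and platelets is a different pair, Itga2b with Itgb3.

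The RefSeq promoter windows of 4 members are printed because these are the members with a window whose transcripts rose in hydrogel. Each window runs from 250 bases before to 50 bases after the annotated start on GRCm38.p6, is written 5′ to 3′ on the gene's own strand, and has in capitals the matches to 2 motifs of factors that are known to act on myeloid genes. These are GAGGAA or its reverse complement TTCCTC, the core of PU.1 sites, and TGTGGT or its reverse complement ACCACA, the core of RUNX sites. The motifs were picked after the counts had been seen. The windows of Itgam (chr7:128062390-128062689, plus strand), Itgax (chr7:128129300-128129599, plus strand), Itga4 (chr2:79255176-79255475, plus strand) and Itgb7 (chr15:102231886-102232185, minus strand) read as follows.
Itgam: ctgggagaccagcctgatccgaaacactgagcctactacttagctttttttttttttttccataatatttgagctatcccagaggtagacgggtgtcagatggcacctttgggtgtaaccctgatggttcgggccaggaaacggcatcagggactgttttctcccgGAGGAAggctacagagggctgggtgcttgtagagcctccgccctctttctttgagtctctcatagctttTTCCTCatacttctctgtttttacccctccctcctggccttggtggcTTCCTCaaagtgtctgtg
Itgax: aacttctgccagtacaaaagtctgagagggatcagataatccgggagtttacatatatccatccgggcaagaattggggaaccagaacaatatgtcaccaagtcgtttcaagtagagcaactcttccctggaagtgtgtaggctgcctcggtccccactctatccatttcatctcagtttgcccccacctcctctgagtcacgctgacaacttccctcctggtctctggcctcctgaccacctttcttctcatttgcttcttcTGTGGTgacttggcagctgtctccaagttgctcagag
Itga4: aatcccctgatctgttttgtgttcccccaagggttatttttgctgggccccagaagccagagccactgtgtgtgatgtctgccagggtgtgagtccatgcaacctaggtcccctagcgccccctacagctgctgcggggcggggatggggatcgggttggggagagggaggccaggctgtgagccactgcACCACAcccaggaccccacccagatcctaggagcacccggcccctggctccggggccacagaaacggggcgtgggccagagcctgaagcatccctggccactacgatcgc
Itgb7: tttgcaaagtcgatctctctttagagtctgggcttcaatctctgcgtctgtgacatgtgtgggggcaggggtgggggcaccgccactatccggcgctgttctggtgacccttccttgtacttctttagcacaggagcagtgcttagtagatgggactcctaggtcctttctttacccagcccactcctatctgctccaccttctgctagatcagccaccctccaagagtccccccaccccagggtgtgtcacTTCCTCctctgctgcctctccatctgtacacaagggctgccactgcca
The Itgam window held 3 PU.1 cores, beginning 84 and 15 bases before the start and at base 33 after it. The Itgb7 window held 1, at base 3. The Itgax window held 1 RUNX core, at base 14 after the start, and the Itga4 window held 1, beginning 60 bases before it. Of all 32851 windows of the same length, 28.3% held at least 1 PU.1 core and 16.8% at least 1 RUNX core, so 1 match is common. The Itga9 window held neither, and of the 7 members 5 had a window. Another motif, GGGCGG or its reverse complement CCGCCC of SP1 sites, was also searched and is not in capitals. It began 47 bases before the start in Itgam and 114 bases before it in Itga4, and 35.7% of all windows held it. A match is a run of letters, not a measured binding site.

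Before the results, 2 libraries need naming, since they lay between the groups. On the first principal component of all tested genes, which took 65.1% of the variance, hydrogel 1 stood at 16.8 against 46.0 to 52.3 for the other hydrogel libraries. Liquid 2 stood at -17.0 against -53.1 to -47.4 for the other liquid ones. Both were picked from these data for that position. Leaving out both therefore tends to widen differences and lower p values, and 5633 genes were then called in place of 4052. Values from that fit are no separate support for a change. Totals ran from 27012172 to 37059314 counts per library in hydrogel and from 28825468 to 49281611 in liquid.

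The other blood cells that such a culture could hold were checked by marker lists, as counts in the test across all genes and as CPM summed over each list (CPM, the counts scaled to equal library size by TMM). Of the 22 tested monocyte and macrophage markers, 18 rose in hydrogel, and their summed level was 4253 to 9128 CPM there against 1140 to 2465 in liquid, with Lyz2 and Mpeg1 highest. Of the 13 megakaryocyte markers 9 fell (18140 to 26110 against 21260 to 35300 CPM, Ppbp and Vwf highest), 4 to 6 of them without hydrogel 2, 3 or 4 or liquid 1, 3 or 4 and 13 without hydrogel 1 or liquid 2. Dendritic cell markers fell in 5 of 6 (9.25 to 12.5 against 29.1 to 50 CPM), and mast cell and basophil markers in 6 of 7, a count that was 0 without hydrogel 2, hydrogel 4 or liquid 4, 1 without hydrogel 1, 2 without liquid 2 and 3 without liquid 1. Of 10 neutrophil markers 2 rose and 2 fell, of 4 lymphoid ones 2 rose and 1 fell, of 8 stem and progenitor ones 2 rose and 2 fell, of 5 erythroid ones 2 fell and of 5 eosinophil ones 1 rose. The neutrophil count that fell was 0 without hydrogel 4, 1 without hydrogel 1 or 2 or liquid 2 or 4 and 5 without liquid 3, the stem and progenitor count that fell was 1 without hydrogel 1, 3 or 4 or liquid 2, and the eosinophil count that rose was 0 without hydrogel 2 or 3 or liquid 1, 3 or 4 and 2 without hydrogel 1 or liquid 2. The 7 granulocyte progenitor markers did not pass, summing to 168 to 391 CPM in hydrogel and 157 to 658 in liquid (Mpo and Elane highest). Neutrophil markers summed to 293 to 714 CPM in hydrogel and 296 to 1335 in liquid (Ngp and S100a9 highest). Cd163 and Vsig4 of tissue macrophages, Ly6g of neutrophils and Cd3e of T cells were at or near 0. They were named for that low level, while other markers on the same lists were well above 0, so these cell types are not shown to be absent. Megakaryocyte markers were plentiful in every library. Of all tested genes 15.1% rose and 14.1% fell in hydrogel, the shares to set beside these counts.

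Transcripts of 6 of the 7 leukocyte integrins rose in hydrogel culture and 1 did not pass the test. Of all 13845 genes tested with edgeR's quasi-likelihood test, 29.3% passed at an adjusted p of 0.05, 15.1% as higher and 14.1% as lower in hydrogel. The count of members that fell was 0, also at an unadjusted p under 0.05, with DESeq2 and with limma-voom. The median change of the 7 was 1.0 on the log2 scale, a 2.0-fold rise, against -0.01 over all tested genes. In 4 members the 4 hydrogel libraries lay wholly above the 4 liquid ones, an arrangement seen in 14.6% of all tested genes (28.4% for either direction), and in 3 the groups overlapped. In bulk RNA, fewer cells of a type and less RNA per cell cannot be told apart, and this holds for every level given here. The count of 6 became 4 without liquid 1 or without liquid 4, 5 without hydrogel 2, 3 or 4 or liquid 3, and 7 without both hydrogel 1 and liquid 2.

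**Figure D1:**
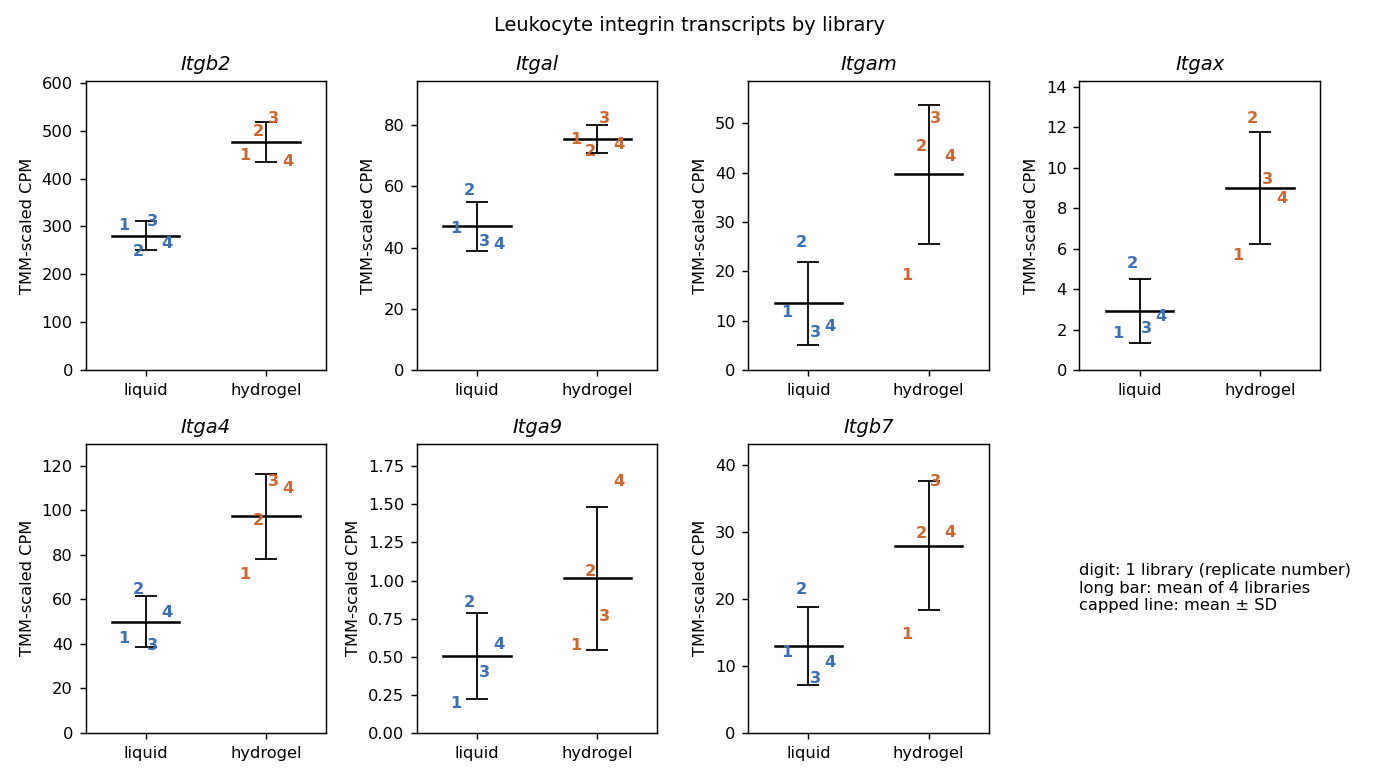
Level of each leukocyte integrin transcript in TMM-scaled CPM (y axis) in liquid and hydrogel libraries (x axis), where each digit is 1 library by its replicate number, the long bar the mean of 4 libraries and the capped line the mean ± SD. Itgb2, Itgal, Itgax and Itga4 do not overlap between the groups, while in Itgam and Itgb7 liquid 2 lies above hydrogel 1.

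Itgb2, the shared beta 2 chain, was the most abundant member. Its level was 447, 498, 525 and 437 CPM in hydrogel 1 to 4 and 302, 248, 309.5 and 264 CPM in liquid 1 to 4. The groups were well apart, the lowest hydrogel library lying above the highest liquid one, and liquid 2 was the lowest library of all. Means were 477 ± 41.8 CPM in hydrogel and 281 ± 29.7 CPM in liquid (SD, n = 4), a 1.70-fold rise (log2 change 0.76 ± 0.10 SE, edgeR adjusted p = 0.000639). Without any 1 library the log2 change stayed between 0.71 and 0.81, and its adjusted p did not exceed 0.00424.

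Itgal, the alpha chain of LFA-1, was measured at 75.2, 71.3, 82.1 and 73.6 CPM in hydrogel 1 to 4 and at 46.2, 58.6, 41.9 and 41.0 CPM in liquid 1 to 4. The hydrogel libraries were close to one another, and liquid 2 was the highest of the liquid group. The rise was 1.61-fold, from 46.9 ± 8.10 to 75.5 ± 4.65 CPM (SD, n = 4; log2 change 0.69 ± 0.11 SE, edgeR adjusted p = 0.00175), and it passed in all 8 fits that left out 1 library.

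Itgam, the alpha chain of Mac-1 and a common marker of monocytes, macrophages and granulocytes, had a wider spread. It stood at 19.2, 45.2, 50.9 and 43.3 CPM in hydrogel 1 to 4 and at 11.6, 25.8, 7.70 and 8.91 CPM in liquid 1 to 4. Liquid 2 was above hydrogel 1, so the groups overlapped, while the other 3 libraries of each group were far apart. The rise was 2.95-fold, from 13.5 ± 8.38 to 39.6 ± 14.0 CPM (SD, n = 4; log2 change 1.56 ± 0.40 SE, edgeR adjusted p = 0.0166). The call was lost without liquid 1 (adjusted p = 0.0509) and without liquid 4 (adjusted p = 0.0547). Without both hydrogel 1 and liquid 2 the log2 change was 2.33 (adjusted p = 6.03e-08). Those libraries were picked for lying between the groups, so a wider gap without them follows from that choice. A gene annotated on the same strand, Gm49368, overlaps Itgam and had 0 to 2 counts per library. How reads on both genes were counted is not given in the sources used here.

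Itgax, the alpha chain that marks dendritic cells and many macrophages, was low: 5.67, 12.4, 9.42 and 8.51 CPM in hydrogel 1 to 4 against 1.80, 5.26, 2.07 and 2.64 CPM in liquid 1 to 4. The groups did not overlap, but hydrogel 1 and liquid 2 came within a small distance of each other. The rise was 3.08-fold, from 2.94 ± 1.59 to 9.01 ± 2.79 CPM (SD, n = 4; log2 change 1.62 ± 0.35 SE, edgeR adjusted p = 0.00714). It passed whichever 1 library was left out, and without both hydrogel 1 and liquid 2 the log2 change was 2.23. Of the 6 tested dendritic cell markers given above 5 fell, Clec9a and Flt3 being the most abundant on that list. Itgad, the fourth alpha chain that pairs with beta 2, had 3 reads over the 4 hydrogel libraries and 1 over the 4 liquid ones and was not tested.

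Itga4, which forms VLA-4 with beta 1, was measured at 71.3, 95.3, 113 and 109.7 CPM in hydrogel 1 to 4 and at 42.4, 64.4, 39.1 and 54.2 CPM in liquid 1 to 4. The groups did not overlap, with hydrogel 1 the lowest of its group and liquid 2 the highest of the other. Its rise was 1.95-fold, from 50 ± 11.6 to 97.3 ± 19.0 CPM (SD, n = 4; log2 change 0.96 ± 0.18 SE, edgeR adjusted p = 0.00362), and it passed whichever 1 library was left out. A gene on the opposite strand, Cerkl, overlaps Itga4 and had 22 to 64 counts per library.

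Itgb7, the other beta chain that Itga4 pairs with, stood at 14.7, 29.7, 37.6 and 30.0 CPM in hydrogel 1 to 4 and at 11.9, 21.4, 8.19 and 10.5 CPM in liquid 1 to 4. As for Itgam, liquid 2 lay above hydrogel 1. The rise was 2.16-fold, from 13.0 ± 5.79 to 28 ± 9.57 CPM (SD, n = 4; log2 change 1.11 ± 0.33 SE, edgeR adjusted p = 0.0291). The call was lost without hydrogel 2, 3 or 4 or liquid 1, 3 or 4, the adjusted p then reaching 0.0851 at most. Without both hydrogel 1 and liquid 2, picked for lying between the groups, the log2 change was 1.69 (adjusted p = 1.4e-06).

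Itga9, which pairs with beta 1 and binds VCAM-1 and osteopontin, was near the floor of the assay, with 6 to 51 counts per library. Its level was 0.575, 1.06, 0.766 and 1.65 CPM in hydrogel 1 to 4 and 0.193, 0.855, 0.396 and 0.582 CPM in liquid 1 to 4. The groups overlapped, liquid 2 exceeding hydrogel 1 and hydrogel 3. The log2 change of 1.0 ± 0.46 SE did not pass (edgeR adjusted p = 0.132). Without both hydrogel 1 and liquid 2, picked for lying between the groups, it was 1.56 (adjusted p = 0.0148). An antisense gene over the same stretch, Gm2415, had 130 to 344 counts per library, more than Itga9 itself, and whether counting used strand is not given in the sources used here.

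Levels can be set beside each other only per length. In CPM per kilobase of merged exons, Itgb2 was the highest member in both cultures, at 161 ± 14.1 in hydrogel and 94.6 ± 9.99 in liquid (SD, n = 4). In liquid it was followed by Itgal at 7.35 ± 1.27, Itga4 at 5.12 ± 1.19, Itgb7 at 4.84 ± 2.16 and Itgam at 2.74 ± 1.70 CPM per kilobase. Each neighbouring pair in this stretch of 4 overlapped in range over the libraries, although every Itgal library was above every Itgam one, and within each liquid library Itgal exceeded Itga4 and Itgb7 exceeded Itgam. Itgax at 0.679 ± 0.366 and Itga9 at 0.0709 ± 0.0394 were each below every library of the gene before them. In hydrogel the means of Itgal, Itgb7, Itga4 and Itgam lay between 8.05 and 11.8 CPM per kilobase. Their single libraries ran from 3.89 (Itgam in hydrogel 1) to 14.0 (Itgb7 in hydrogel 3). Itgax at 2.08 ± 0.643 and Itga9 at 0.142 ± 0.0657 again came last. For scale, Itgb1, the beta chain shared by Itga4 and Itga9, stood at 260.3 ± 32.4 in hydrogel and 322 ± 52.1 in liquid. The platelet pair was higher still, Itga2b at 1119 ± 241 and 1848 ± 327 and Itgb3 at 1118 ± 227 and 1718 ± 370 CPM per kilobase.

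Within the beta 2 family, chosen for this summary after the values were seen and given without a test, the beta chain exceeded its 3 alpha chains in every library. Summed over Itgal, Itgam and Itgax, the alpha chains came to 17.0, 23.2, 25.4 and 22.3 CPM per kilobase in hydrogel 1 to 4 and to 10.02, 15.6, 8.60 and 8.85 in liquid 1 to 4. Itgb2 was 8.87, 7.22, 6.96 and 6.60 times that sum in hydrogel and 10.2, 5.34, 12.1 and 10.1 times in liquid, where liquid 2 was the lowest of all 8. Itgal made up 69.4, 48.1, 50.7 and 51.8% of the alpha sum in hydrogel 1 to 4 and 72.3, 58.7, 76.3 and 72.7% in liquid 1 to 4. The share of Itgam was 22.9, 39.5, 40.8 and 39.4% in hydrogel and 23.6, 33.5, 18.2 and 20.4% in liquid. By this measure hydrogel 1 lay among the liquid libraries, and liquid 2 was the closest of its group to the other 3 hydrogel ones.

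**Figure D2:**
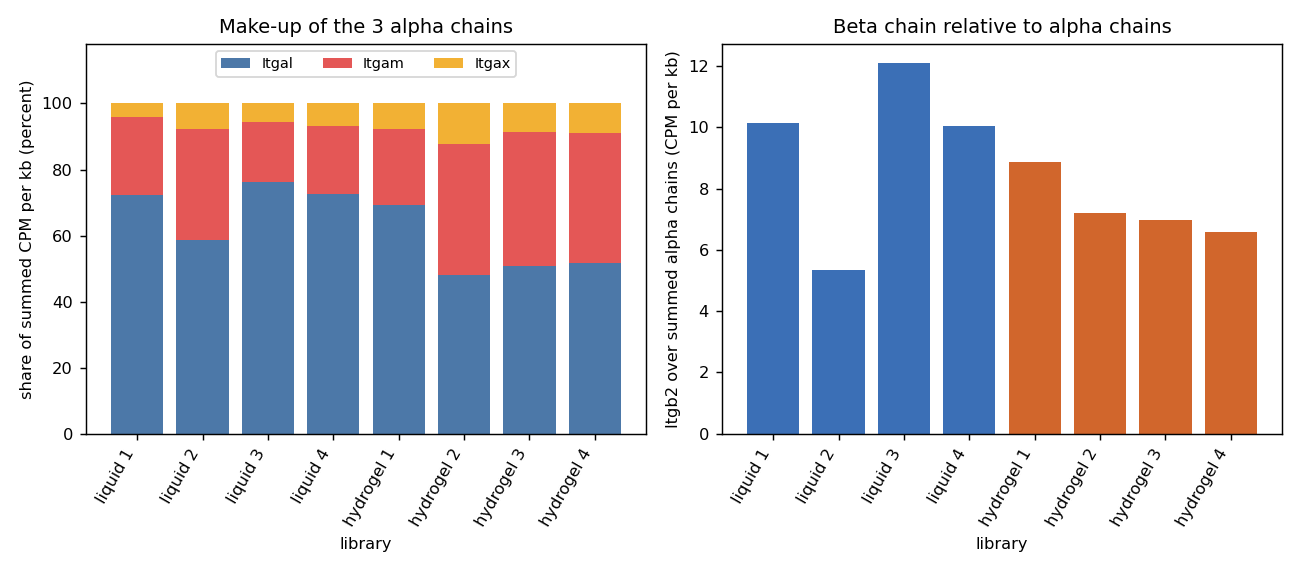
Left, share of Itgal, Itgam and Itgax in their summed CPM per kilobase (percent, stacked bars) for each library; right, Itgb2 over that sum (ratio of CPM per kilobase, bars) for each library, liquid in blue and hydrogel in orange. Itgal holds 48.1 to 51.8% in hydrogel 2 to 4 and 58.7 to 76.3% in the liquid libraries, with hydrogel 1 at 69.4%.

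Whether partner chains changed unequally was asked with 8 ratios taken within each library, which do not depend on scaling between libraries. Each ratio is the log2 of one gene's count over another's with 0.5 added, compared by an exact two-sided permutation test over the 8 libraries, whose smallest possible p is 0.0286. Adjusted over 8 ratios, no single ratio could pass on its own even at that p, so a ratio that misses the threshold does not show equal change. Of the 8 ratios 0 passed after Benjamini-Hochberg adjustment, and 0 had an unadjusted exact p under 0.05. All 8 overlapped between the groups.

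Itgam over Itgal was -1.97, -0.66, -0.69 and -0.77 in hydrogel 1 to 4 and -1.99, -1.18, -2.44 and -2.20 in liquid 1 to 4. Hydrogel 1 lay with the liquid libraries, and the other 3 hydrogel libraries were above every liquid one. The mean difference was 0.93 in log2 (exact permutation p = 0.0571, adjusted 0.229), and 1.51 without both hydrogel 1 and liquid 2, where 3 against 3 cannot give a p below 0.1.

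Itgam over Itgb2 was -4.54, -3.46, -3.37 and -3.33 in hydrogel 1 to 4 and -4.70, -3.26, -5.33 and -4.89 in liquid 1 to 4. Here liquid 2 was the highest of all 8 libraries, and hydrogel 1 was near the remaining liquid ones. The mean difference was 0.87 (exact permutation p = 0.171, adjusted 0.274), and 1.58 without both of those libraries. Itgax over Itgb2 differed by 0.92 (exact permutation p = 0.114, adjusted 0.229), and Itgal over Itgb2 by -0.07 (exact permutation p = 0.914, adjusted 0.914). Itgax over Itgam differed by 0.06 (exact permutation p = 0.886, adjusted 0.914).

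For the VLA-4 pair, Itga4 over Itgb1 was -4.04, -3.28, -3.13 and -3.02 in hydrogel 1 to 4 and -4.96, -3.88, -5.17 and -4.51 in liquid 1 to 4. The groups touched through hydrogel 1, which was below liquid 2, and the mean difference was 1.26 (exact permutation p = 0.0571, adjusted 0.229). Itga9 over Itgb1 differed by 1.36 (exact permutation p = 0.114, adjusted 0.229) and Itga4 over Itgb7 by -0.16 (exact permutation p = 0.571, adjusted 0.762). Itgb1 itself was 993 ± 124 CPM in hydrogel and 1228 ± 199 CPM in liquid (SD, n = 4), a log2 change of -0.31 ± 0.14 SE that did not pass (edgeR adjusted p = 0.122).

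The level of monocyte and macrophage markers was higher in hydrogel, as were the mean levels of these integrins. Within a culture the members did not all follow the marker level, as given below. A score for each library, the mean centred log2 CPM of the 22 tested markers, was 0.44, 1.37, 1.31 and 1.43 in hydrogel 1 to 4 and -1.67, -0.23, -1.52 and -1.13 in liquid 1 to 4. No member of the group is among the markers. The hydrogel libraries were all above the liquid ones, with hydrogel 1 and liquid 2 nearest to each other. Culture accounted for 84.5% of the variance of the score, so a fit that holds both has little left to tell them apart (variance inflation factor 6.46).

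**Figure D3:**
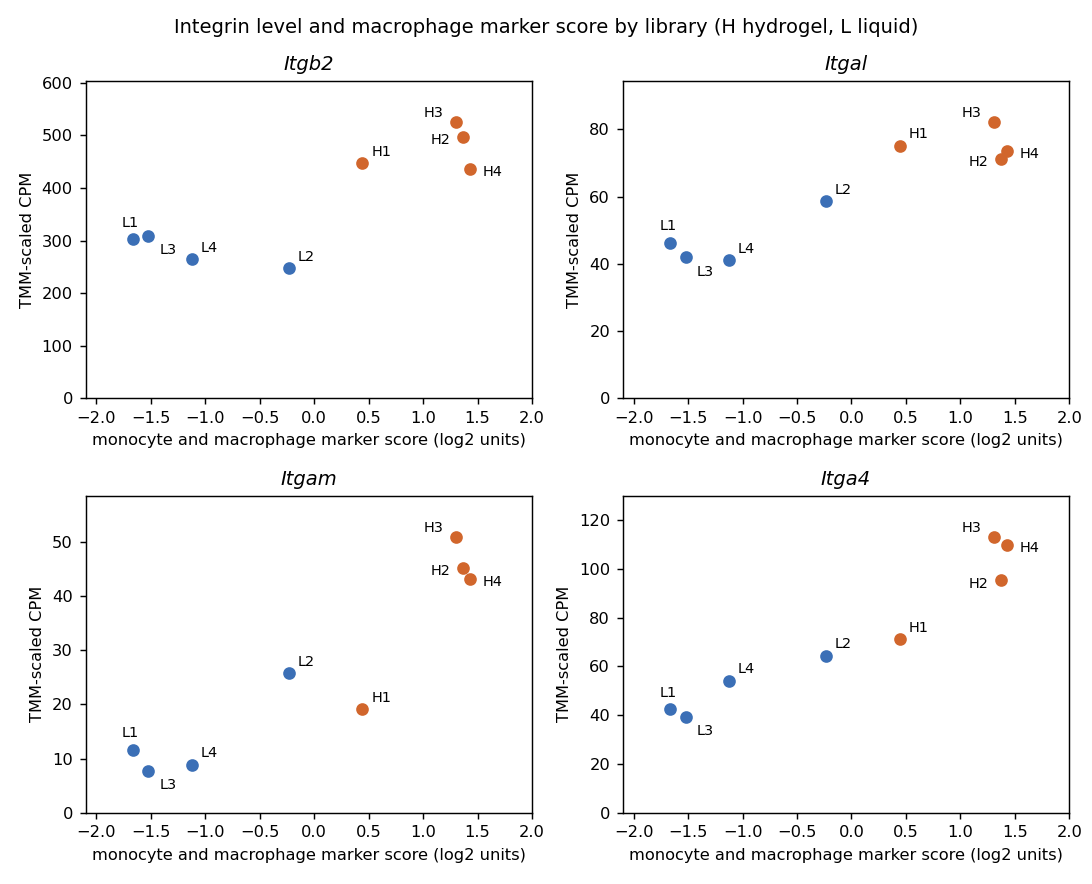
Level of Itgb2, Itgal, Itgam and Itga4 in TMM-scaled CPM (y axes) against the monocyte and macrophage marker score in log2 units (x axes), 1 point a library, H hydrogel and L liquid. Liquid 2, with the highest score of the liquid libraries at -0.23, is the lowest in Itgb2 at 248 CPM and the highest of its group in Itgam at 25.8 CPM.

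When the score was added to the edgeR model as a covariate, 526 genes passed in place of 4052, and 1 of the 7 members was among them. Itgb2 had a log2 change of 1.02 (adjusted p = 0.0237). Itgal had 0.27 (adjusted p = 0.559). The other 5 turned direction and did not pass: Itgam to -0.94 (adjusted p = 0.264), Itgax to -0.57 (adjusted p = 0.47), Itga4 to -0.22 (adjusted p = 0.625), Itgb7 to -0.93 (adjusted p = 0.235) and Itga9 to -1.53 (adjusted p = 0.369). Without both hydrogel 1 and liquid 2 and with no covariate, all 7 rose, Itgb2 by 0.75, Itgal by 0.83 and Itga4 by 1.24 on the log2 scale. Because those libraries were picked for lying between the groups, that count is no separate support. The part of the marker level in these changes was not tested.

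**Figure D4:**
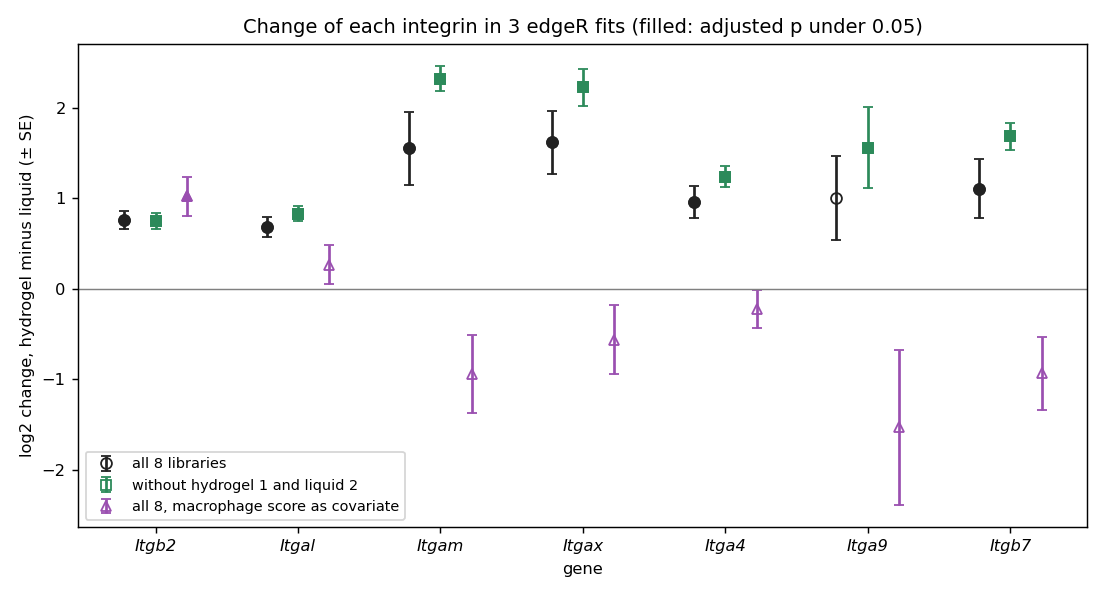
Log2 change of each integrin, hydrogel minus liquid (y axis, points with ± SE), in 3 edgeR fits: all 8 libraries, without hydrogel 1 and liquid 2, and all 8 with the marker score as covariate, filled where the adjusted p is under 0.05. Itgb2 is at 0.76, 0.75 and 1.02 in the 3 fits, while Itgam goes from 1.56 and 2.33 to -0.94.

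Deviations from the group means over the 8 libraries describe how the members varied within a culture. Pearson's r with the marker score was 0.95 for Itgax, 0.922 for Itga4, 0.886 for Itgam, 0.875 for Itgb7, 0.853 for Itga9, 0.595 for Itgal and -0.44 for Itgb2. Itgam and Itgb7 followed each other most closely, at r = 0.986. Leaving out hydrogel 1 and liquid 2, the 6 remaining libraries gave -0.638 for Itgal, -0.453 for Itgam and -0.169 for Itgb7 with the score, so for these 3 the positive relation rested on the 2 libraries that lie between the groups. Itgax (0.641), Itga4 (0.738) and Itga9 (0.837) stayed positive, and Itgb2 stayed negative (-0.757). Itgam and Itgb7 remained at 0.92 with each other. These are descriptions over few libraries whose values share depth and scaling.

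The genes whose pattern was most like that of Itgb2 over the 8 libraries, by Pearson's r of log2 CPM, were S1pr1 (0.989), Pip4k2c (0.988), Cyp4f16 (0.988), Hexa (0.985) and Msn (0.985). S1pr1 encodes a receptor for sphingosine 1-phosphate and Msn the membrane linker moesin. For Itga4 they were Cd48 (0.996), Snx24 (0.995), Tnfaip1 (0.992), Lilra6 (0.992) and Maf (0.991). Cd48 encodes an adhesion molecule of blood cells, and Maf a transcription factor of macrophages. By deviations from the group means, which take out the difference between cultures, Itgb2 was most like Slc25a25 (0.991), Dip2c (0.98), Lrp12 (0.974), Serpina3f (0.973) and Cnppd1 (0.972). Itga4 was most like Klf10 (0.992), Elovl5 (0.992), Cd48 (0.986), Acod1 (0.981) and Snx24 (0.98), so Cd48 and Snx24 were named by both measures for Itga4 and no gene by both for Itgb2.

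The remaining integrin subunits moved in both directions. Of 19 listed, 14 were tested, 2 rose, 3 fell and 9 did not pass, with a median log2 change of -0.31. Over all tested genes 15.1% were higher and 14.1% lower in hydrogel. These shares stand beside this count and those of the lists below. Itga1, a collagen receptor chain, rose from 6.38 ± 2.40 to 17.8 ± 5.81 CPM (SD, n = 4; log2 change 1.49, edgeR adjusted p = 0.00564), and Itga5, the fibronectin receptor chain, rose by 0.34 (adjusted p = 0.0119). Itga2b fell by 0.72 on the log2 scale (adjusted p = 0.0165), a call lost without hydrogel 2, 3 or 4 or liquid 1. Itgb4, a chain of hemidesmosomes, fell by 0.54 (adjusted p = 0.0321), lost without any of the same 4 or liquid 3 or 4. The count of 3 that fell was 0 without hydrogel 2, 3 or 4 or liquid 1 and 6 without liquid 2.

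Ligands of these receptors moved in both directions. Of 12 tested, 5 rose, 2 fell and 5 did not pass, with a median of -0.02. Fn1, fibronectin and a ligand of VLA-4, was at 23.5, 49.5, 52.1 and 52.7 CPM in hydrogel 1 to 4 and at 8.51, 12.5, 6.18 and 6.77 CPM in liquid 1 to 4. The groups were wide apart (log2 change 2.39, edgeR adjusted p = 0.000554). Spp1, osteopontin and a ligand of VLA-4 and of the Itga9 receptor, rose from 29.1 ± 9.22 to 180.0 ± 71.8 CPM (SD, n = 4; log2 change 2.63, adjusted p = 0.000591). Icam1, the main ligand of LFA-1 and Mac-1, rose from 4.97 ± 1.76 to 19.8 ± 6.57 CPM (log2 change 1.99, adjusted p = 0.00133). Icam4, a ligand made by red cell precursors, fell from 4.58 ± 0.51 to 2.27 ± 0.42 CPM, by 1.01 on the log2 scale (adjusted p = 0.00264). Vcam1, the endothelial ligand of VLA-4, did not pass (log2 change -0.17, adjusted p = 0.769). The count that fell was 1 without hydrogel 2, 3 or 4 or liquid 1 or 4.

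**Figure D5:**
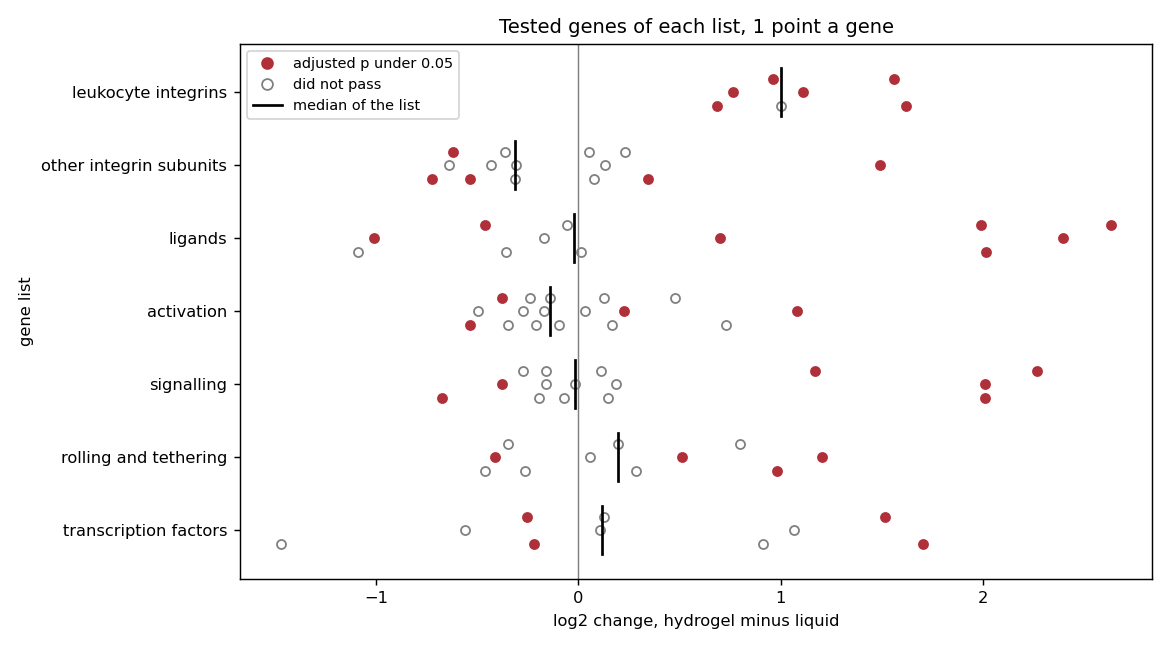
Log2 change, hydrogel minus liquid (x axis), of each tested gene in 7 lists (y axis), 1 point a gene, filled where the edgeR adjusted p is under 0.05, with the median of each list as a bar. All 7 leukocyte integrins lie to the right of 0 with a median of 1.0, while the medians of the other lists lie between -0.31 and 0.20.

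Of 17 tested genes that act on the switch of integrins to their binding state, for or against it, 2 rose, 2 fell and 13 did not pass. Their median was -0.14. Apbb1ip, the adaptor RIAM that links Rap1 to talin, rose from 38.2 ± 9.99 to 80.7 ± 18.7 CPM (SD, n = 4; log2 change 1.08, edgeR adjusted p = 0.00405), and Itgb1bp1, which acts on the beta 1 tail, rose by 0.23 (adjusted p = 0.0392). Rasgrp2, the Rap1 exchange factor of platelets, fell by 0.53 (adjusted p = 0.0182) and the kinase Stk4 by 0.38 (adjusted p = 0.0299). The Rasgrp2 call was lost without hydrogel 2, 3 or 4, that of Stk4 also without liquid 1, 3 or 4, and that of Itgb1bp1 under every omission of 1 library except that of liquid 1, and also under upper-quartile scaling. The count that fell was 0 without hydrogel 2, 3 or 4 and 6 without liquid 2, and the count that rose was 1 without hydrogel 2, 3 or 4 or liquid 3 or 4. Talin itself, Tln1, had a log2 change of 0.03 (adjusted p = 0.916) and kindlin-3, Fermt3, one of -0.35 (adjusted p = 0.111).

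Of 15 genes that carry signals from bound integrins, 4 rose, 2 fell and 9 did not pass, with a median of -0.02. The Src family kinase Fgr rose from 7.51 ± 2.29 to 36.0 ± 11.4 CPM (SD, n = 4; log2 change 2.27, edgeR adjusted p = 0.000561). Tyrobp, the adaptor DAP12, rose by 2.01 (adjusted p = 0.00224). Src fell from 537 ± 82.0 to 337 ± 28 CPM, by 0.67 on the log2 scale (adjusted p = 0.00219). The count that fell was 1 without any of hydrogel 2, 3 or 4 or liquid 1, 3 or 4, and 4 without liquid 2.

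Of 11 genes of leukocyte rolling, 3 rose, 1 fell and 7 did not pass, with a median of 0.20. Selplg, the selectin ligand PSGL-1, had a log2 change of 1.21 (edgeR adjusted p = 0.0321) and the sulfotransferase Tpst1 one of 0.98 (adjusted p = 0.0266). All 3 calls that rose were lost without any of hydrogel 2, 3 or 4 or liquid 1, 3 or 4, leaving 0. The sialyltransferase St3gal6 fell by 0.41 (adjusted p = 0.00659), and 3 fell without liquid 2.

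Of 10 transcription factors known to act on leukocyte integrin genes, 2 rose, 2 fell and 6 did not pass, with a median of 0.12. Cebpb was at 64.4, 87.8, 67.9 and 92.3 CPM in hydrogel 1 to 4 and at 28.5, 25.3, 23.6 and 18.5 CPM in liquid 1 to 4. The groups did not overlap, and the log2 change was 1.70 (edgeR adjusted p = 0.000173), or 1.44 with the marker score as covariate (adjusted p = 0.0453). Spi1, which encodes PU.1, was at 45.6, 101.1, 108 and 96.7 CPM in hydrogel 1 to 4 and at 28.8, 51.3, 20.2 and 23.0 CPM in liquid 1 to 4. As for Itgam, liquid 2 was above hydrogel 1, and the log2 change was 1.52 (adjusted p = 0.0074), or -0.54 with the covariate (adjusted p = 0.496). Runx1 fell by 0.22 (adjusted p = 0.0499) and Runx3 by 0.25 (adjusted p = 0.0428), and both calls were lost under 7 of the 8 omissions of 1 library, the exceptions being liquid 2 for Runx1 and liquid 3 for Runx3. Scaling by library totals ended both as well, and DESeq2 size factors or limma-voom that of Runx1. The count that rose was 4 without hydrogel 1 or liquid 2, and the count that fell was 0 without any 1 hydrogel library or liquid 4. Of the genes named in these 6 lists, Cebpb alone still passed with the covariate.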

How the data were processed

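Gene expression was measured by stranded polyA RNA-seq in 8 libraries, 4 per culture. The authors deposited a single table of raw read counts per gene, whole numbers with no normalization. The tools named are STAR 2.7.10b, HTSeq 0.13.5 and bcl2fastq with build GRCm39, per the submitters' processing notes. Which annotation release was used, and whether reads were counted by strand, is not given in the sources used here, so overlapping genes on opposite strands are uncertain. Of 27679 identifiers, 26534 took a symbol from GENCODE M21, an annotation of another build (GRCm38), which also gave the merged exon lengths. Promoter windows are from RefSeq (GRCm38.p6). 2 stray lines naming no gene were left out, and 0 sample columns were unused.

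Sample treatments and titles gave the groups and replicate numbers. The filterByExpr function kept 13845 genes, which were TMM-scaled; the test was edgeR's quasi-likelihood F test (version 4.0.16 under R 4.3.3), culture being the single term, with Benjamini-Hochberg adjustment over all tested genes at 0.05. CPM are TMM-scaled. The SE of a log2 change is its size over the square root of F. Ratios of 2 genes were tested by exact permutation (Python 3.11.15, scipy 1.17.1). The test scripts were first tested on simulated counts with 200 changed genes. There edgeR recovered 38.8% of 1.5-fold, 67.2% of 2-fold and 97% of 4-fold changes, so smaller changes were often missed. False calls made up 2.88% with edgeR, 4.23% with limma-voom and 19.7% with DESeq2. In the data 4052 genes were called, far more than were changed in the simulation, so these shares need not hold for the data. Alternatives were other scalings and filters, DESeq2 1.42.0, limma-voom (limma 3.58.1), thinning to the smallest library, the replicate number as a block, the marker score as a covariate, a stricter threshold and leaving out libraries.

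The members, the gene lists and the tests were chosen with earlier results of these data known. Named are all members, up to 4 passing genes of each pathway list by adjusted p, up to 2 markers a list by mean level, the beta 1 partner, and the 5 genes most like Itgb2 or Itga4 in each of 2 measures. Other names (Itgb3, Itgad, Vcam1, Tln1, Fermt3 and markers at or near 0) were chosen after their values were seen. A few genes that the rule names are not reported here.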

Additional observations from a re-analysis of the deposited data

Results flagged for a closer look

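In each group of 4 libraries the highest and lowest value were compared with the nearest other library. Of the 106 groups examined, 11 had 1 library far from the rest (gap over range above 0.829), where chance gives about 1 in 20 for a single group. The groups share the same libraries, so the count cannot be set against that rate. Each of the 11 was in hydrogel 1 or liquid 2, and no explanation was tested.

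In hydrogel 1 the log2 ratio of Itgam over Itgb2 was -4.54, the 3 others lying between -3.46 and -3.33, and that of Itgam over Itgal was -1.97 against -0.77 to -0.66. Itga2b was at 5077 CPM against 3346 to 3599, Rasgrp2 at 777.9 against 562 to 598, and Fn1 at 23.5 against 49.5 to 52.7. The summed level of the other integrin subunits was 18420 CPM against 12610 to 13450, that of the integrin transcription factors 720.5 against 873 to 882, and that of the granulocyte progenitor markers 168 against 354 to 391.

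In liquid 2 the kinase Fgr was at 10.9 CPM against 6.03 to 6.55 in the other liquid libraries. Tpst1 was at 2.60 CPM against 1.25 to 1.38, and the dendritic cell markers summed to 50 CPM against 29.1 to 31.5.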

How the results depend on the processing

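With the marker score as covariate the count of genes called fell from 4052 to 526 and that of members that rose from 6 to 1; the log2 change of Itgal weakened to 0.27 and those of Itgam (-0.94), Itgax (-0.57), Itga4 (-0.22) and Itgb7 (-0.93) reversed, and the cause was not tested. At an adjusted p under 0.01, 2091 genes were called. Without both hydrogel 1 and liquid 2, which leaves fewer libraries and drops those picked for lying between the groups, Itga9 passed at 1.56.

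Leaving out 1 library at a time gave 2700 to 4975 genes called (2700 without hydrogel 2, 2890 without hydrogel 3, 4975 without liquid 2), 4 to 6 members that rose and 0 that fell. The log2 change ranged from 0.71 to 0.81 for Itgb2, 0.63 to 0.81 for Itgal, 1.36 to 2.08 for Itgam, 1.42 to 2.05 for Itgax, 0.86 to 1.10 for Itga4, 0.66 to 1.35 for Itga9 and 0.94 to 1.46 for Itgb7. The difference in log2 ratio ranged from -0.16 to 0.10 for Itgal over Itgb2, 0.61 to 1.29 for Itgam over Itgb2, 0.69 to 1.30 for Itgax over Itgb2, -0.30 to -0.04 for Itga4 over Itgb7, 1.08 to 1.51 for Itga4 over Itgb1, 0.94 to 1.79 for Itga9 over Itgb1, 0.77 to 1.25 for Itgam over Itgal and -0.12 to 0.19 for Itgax over Itgam. With 3 against 4 libraries the exact permutation test has only 35 regroupings. None of these ratios passed, the lowest adjusted p being 0.0914 (exact permutation test, without liquid 2). With so few regroupings a miss does not show equal change.

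Same-numbered libraries correlated at 0.22, 0.33, -0.134 and 0.103 in their deviations from the group means, 3 of the 4 pairs being above 0.1. Not every library correlated best with its own number. These values do not settle whether the numbers pair the samples, and the main test did not pair them. With the replicate number as a block 4238 genes were called and 6 members rose. Of all called genes 51.7% were higher, against 41.3% with upper-quartile scaling and 60.1% with library totals, and 6 members rose under both. Itga9 did not pass the filter of 1 CPM in 4 libraries and has no value there. Itga9 had 6 to 51 counts per library, so its values are the least precise by counting error.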
